A study of Mus musculus with 18 samples.

Results

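The 36 genes described here are genes of the cell cycle and of mitosis, chosen by name from a list of cyclins, replication factors, mitotic kinases, centromere proteins and proliferation markers. The rule uses no measured value, but the list was drawn up with earlier results of these data known. All 36 were found among the 24015 gene rows of each of the 3 deposited comparisons. The tissue was microdissected dentate gyrus, a part of the hippocampus made up mainly of granule neurons, from 8-week-old C57BL/6 mice. RNA was sequenced from 18 animals, 1 library each per the labels' protocols, in 6 groups of 3. The groups cFos_OE and EYFP_OE overexpressed c-Fos, which is part of the transcription factor AP-1, or the fluorescent protein EYFP. The groups shRNA-cFos_E1, shRNA-cFos_E0, shRNA-Ctrl_E1 and shRNA-Ctrl_E0 carried a short hairpin RNA named for c-Fos or a control hairpin and were taken at E1 or E0. The series looked at RNA and chromatin after neuronal activation, and the authors named their hairpin comparisons E1 against a sham state. How the constructs were delivered, which cells received them, how neurons were activated and the time between activation and E1 are not given in the sources used for this text.

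A cell enters the cycle when D cyclins and their kinases release E2F factors, which switch on the genes for DNA replication. Later the factor FOXM1, the B cyclins and CDK1 drive mitosis, in which Aurora and Polo-like kinases build the spindle, BUB proteins watch its attachment to centromeres, and the anaphase-promoting complex ends the process. Many of these genes are held silent in non-dividing cells by a repressor complex that binds short promoter elements called CHR, and are activated through E2F sites and CCAAT boxes. Granule neurons do not divide, whereas progenitors in the inner rim of the dentate gyrus, glial precursors and microglia can.

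Promoters of the 36 genes were read from RefSeq (GRCm38.p6), as the 250 bases before and 50 bases after each annotated start, for the 28 genes that had an entry. Those without an entry, whose promoters were not read, were Ccnd1, Ccnd2, Ccne2, Mcm4, Ccna2, Foxm1, Aurkb and Tpx2. Among them Ccnd1, Ccnd2 and Tpx2 had E1 responses that differed between the hairpins, as described below, so the counts say nothing about their promoters. Exact matches were counted on both strands, no pattern contained another, and the share over all 27025 genes with a promoter entry is given beside each count. The CHR letters TTTGAA stood in 15 of 28 promoters (53.57%, against 20.23% of all genes). An E2F pattern (TTTCGCGC, TTTGGCGC or TTTCCCGC) stood in 5 of 28 (17.86%, against 2.12%), and the cyclic AMP response element TGACGTCA in 2 of 28 (7.143%, against 2.031%). The AP-1 letters TGANTCA stood in 0 of 28 (0%, against 8.973%). The CCAAT box, a pattern added after the Cenpa promoter had been read, stood in 24 of 28 (85.71%, against 41.06%). Printed below are the promoters of Cenpa and Mcm6, the only genes of the 36 whose RNA was called the same way at E1 with both hairpins, higher for Cenpa and lower for Mcm6. Capitals mark the matched letters.
Cenpa, chr5:30666636-30666935, plus strand, GRCm38.p6: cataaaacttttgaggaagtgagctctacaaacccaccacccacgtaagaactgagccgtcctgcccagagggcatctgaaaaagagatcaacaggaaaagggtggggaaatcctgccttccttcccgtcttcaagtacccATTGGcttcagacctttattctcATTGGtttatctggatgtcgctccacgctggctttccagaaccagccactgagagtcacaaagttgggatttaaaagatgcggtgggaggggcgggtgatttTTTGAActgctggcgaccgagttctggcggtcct
Mcm6, chr1:128359656-128359955, minus strand, GRCm38.p6: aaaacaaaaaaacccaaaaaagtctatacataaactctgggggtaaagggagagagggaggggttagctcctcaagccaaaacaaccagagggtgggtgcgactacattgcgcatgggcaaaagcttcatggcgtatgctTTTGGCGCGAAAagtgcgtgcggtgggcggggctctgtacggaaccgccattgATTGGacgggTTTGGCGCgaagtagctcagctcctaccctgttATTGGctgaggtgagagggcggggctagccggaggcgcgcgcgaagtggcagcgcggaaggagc
In the Cenpa promoter the CHR letters began 16 bases after the annotated start, and 2 CCAAT boxes, read as ATTGG on the printed strand, began 109 and 86 bases before it. In the Mcm6 promoter 3 E2F matches began 110, 106 and 47 bases before the start, of which the first 2 overlapped on opposite strands, and 2 CCAAT boxes began 57 and 14 bases before it. A match of letters is a description of the window and not evidence of binding.

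The deposited tables hold comparisons and no values per library, so depth per library is unknown and no spread between libraries could be recomputed. Each value below is the authors' log2 fold change ± its standard error (SE) from a DESeq2 fit of 3 against 3 libraries, with a Benjamini-Hochberg adjusted p over all genes of the table. A gene is called higher or lower where that adjusted p is under 0.05. Levels are mean normalized counts per group, estimated from the mean over the 6 libraries and the fold change, and they carry no error. The 3 comparisons share no library, and each was normalized on its own, so levels are compared only within a table. No source used here says whether the fold changes were shrunken, but from the pattern of their standard errors it was inferred that the fitting had pulled them toward 0. The levels of the 2 groups of a comparison rest on these fold changes and so would be drawn toward each other. Both effects would be strongest for genes with few counts. The cell cycle genes were mostly such genes: in the authors' deposited tables the median of the mean count per gene was 54.0 with shRNA-cFos, 61.2 with shRNA-Ctrl and 45.4 with overexpression, against 373.6, 420.2 and 325.1 over all tested genes. In bulk tissue, fewer cells of a type and less RNA per cell cannot be told apart. By the GENCODE M21 annotation, 11 of the 36 genes share exon sequence with another gene on either strand, among them Ccnd1, Ccnd2, Mcm7, Prc1, Cdc20 and Top2a. Another 4 (Pcna, Tyms, Ccnb1 and Ccnb2) have a named pseudogene, so that reads of these genes may be split or shared in a way the sources do not state. Fos itself changed in the authors' deposited tables by 2.33 ± 0.15 at E1 with shRNA-cFos, 3.36 ± 0.14 at E1 with shRNA-Ctrl and 3.34 ± 0.20 with overexpression. Fos is a check of the labels for the hairpins only, since the sign of overexpression was taken from it.

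Across the 3 comparisons 16 of the 36 genes were called at least once, a description only, as the share of all genes was not computed. The directions of the 36 genes differed between the hairpins. With shRNA-cFos, 32 genes were tested at E1 in the authors' deposited table, of which 8 fell (25%, against 11.7% of all genes) and 1 rose (3.12%, against 16.3%). With shRNA-Ctrl, all 36 genes were tested at E1 in the authors' deposited table, of which 9 rose (25%, against 16.8% of all genes) and 1 fell (2.78%, against 16.2%). Under c-Fos overexpression, all 36 genes were tested, of which 5 rose (13.9%, against 7.1% of all genes) and 1 fell (2.78%, against 5.86%) in the authors' deposited table. The median log2 fold change of the tested genes was -0.33 with shRNA-cFos, 0.25 with shRNA-Ctrl and 0.26 with overexpression, as computed from the authors' deposited tables, where the median over all genes lay within 0.01 of 0. The 4 genes left untested with shRNA-cFos were Cdk1, Ccnb1, Aurkb and Bub1, whose mean counts of 7.71 to 11.8 in the authors' deposited table lay under that table's lowest tested mean of 12.2. Only Ccnd1 and Top2a were called in all 3 comparisons, 5 genes were called in 2 and 9 in 1. For these counts too the share of all genes was not computed.

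**Figure D1:**
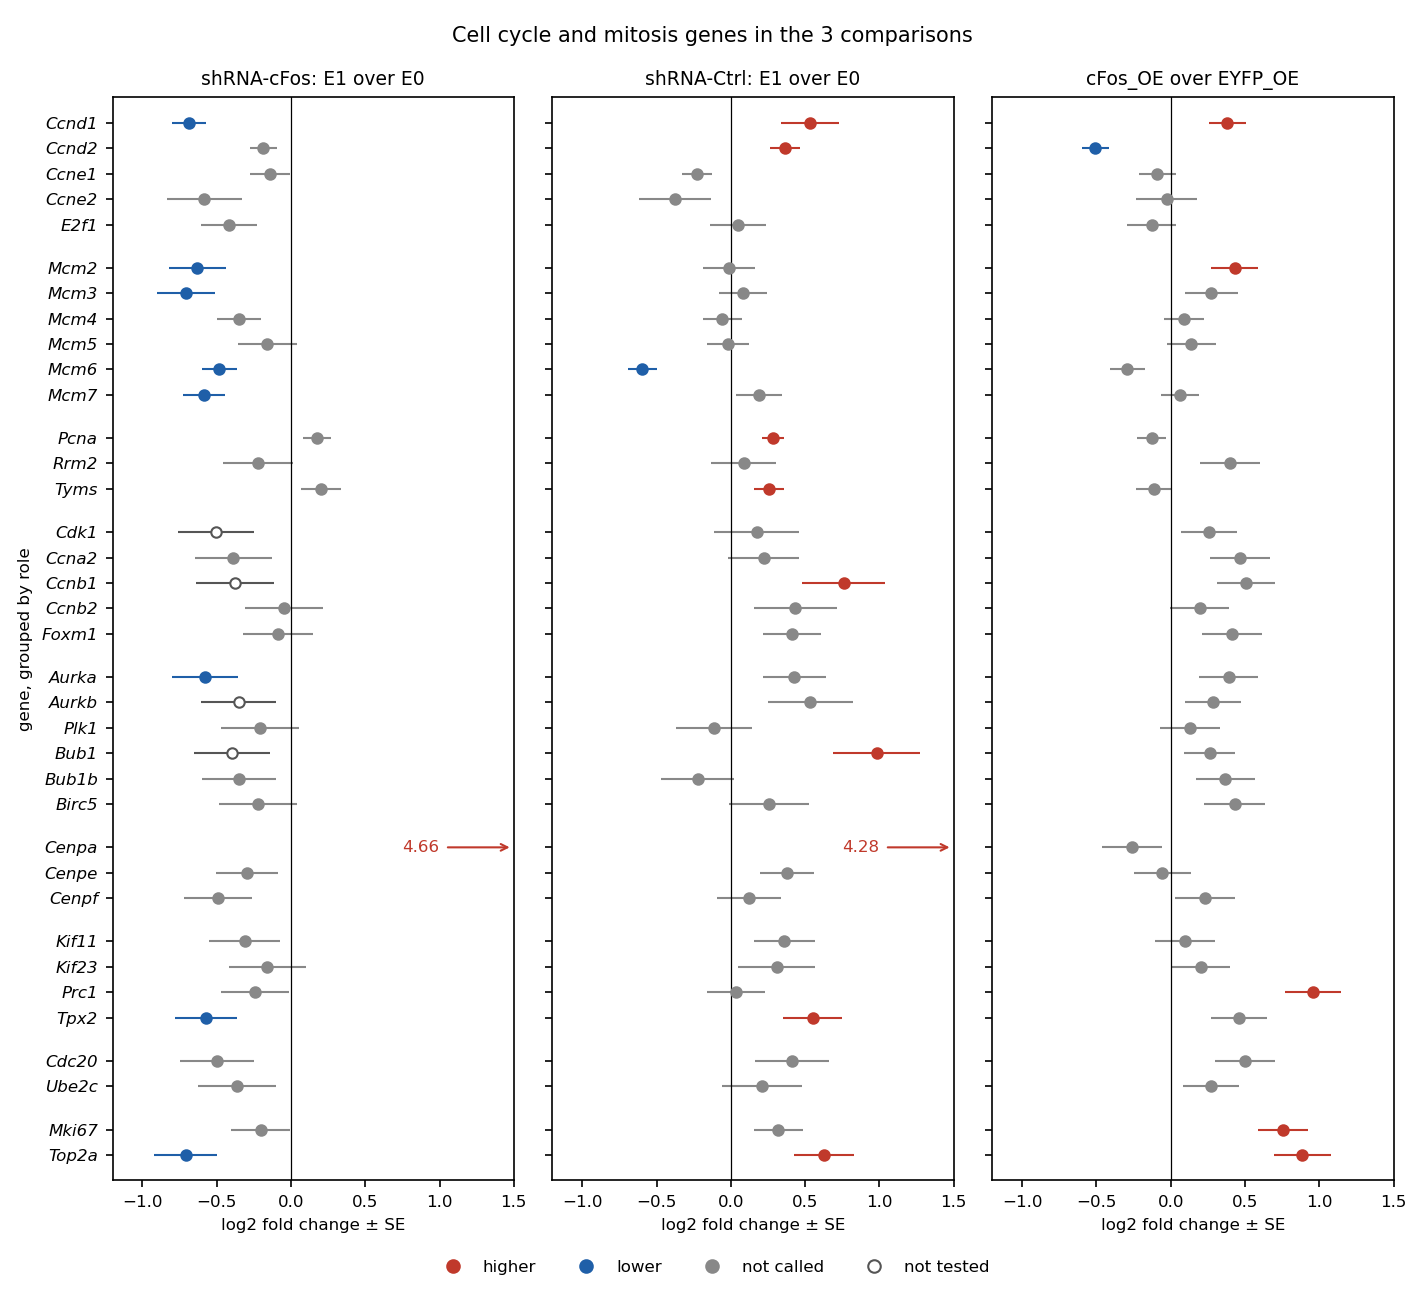
Log2 fold change (x axis, ± SE) of each of the 36 genes (rows, grouped by role) at E1 with shRNA-cFos, at E1 with shRNA-Ctrl and with c-Fos overexpression, from left to right. Red, blue, grey and open points are genes called higher, called lower, not called and not tested, and Cenpa lies beyond the axis at 4.66 and 4.28 in the 2 hairpin panels. Most points lie left of 0 with shRNA-cFos (29 of 32 tested) and right of 0 with shRNA-Ctrl (28 of 36) and overexpression (27 of 36).

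Cenpa, which encodes the histone H3 variant that marks centromeres, stood apart from the other 35 genes. Its estimated level was 1579 normalized counts at E1 and 62.6 at E0 with shRNA-cFos, from the authors' deposited table. With shRNA-Ctrl the same estimate from the authors' deposited table was 2045 at E1 and 105.1 at E0. It was 28.6 in cFos_OE and 34.2 in EYFP_OE, again from the authors' deposited table. Within each hairpin table Cenpa RNA was thus far higher at E1 than at E0. The authors' deposited table put its rise at 4.66 ± 0.14 with shRNA-cFos (25.2-fold, adjusted p = 1.15e-242), the 2nd highest log2 fold change of 14388 tested genes. With shRNA-Ctrl the rise in the authors' deposited table was 4.28 ± 0.15 (19.5-fold, adjusted p = 8.01e-167), the 5th highest of 15675. If the inferred shrinkage is removed, the folds would be 32.8 and 24.7, computed from the authors' deposited tables. Overexpression of c-Fos left Cenpa uncalled in the authors' deposited table (-0.26 ± 0.20, adjusted p = 0.531, mean count 31.4). The largest value among the other 35 genes was 0.98 with shRNA-Ctrl and 0.20 with shRNA-cFos, by the authors' deposited tables. The difference of the E1 responses of Cenpa, shRNA-cFos minus shRNA-Ctrl, was 0.38, with a 95% interval of -0.03 to 0.78. It did not pass the test (adjusted p = 0.186), as computed from the authors' deposited tables. The response of Fos was lower with shRNA-cFos by a tested difference of -1.03 ± 0.20 (adjusted p = 1.11e-05), computed likewise from the authors' deposited tables. Whether the rise of Cenpa depends on c-Fos was not tested.

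**Figure D2:**
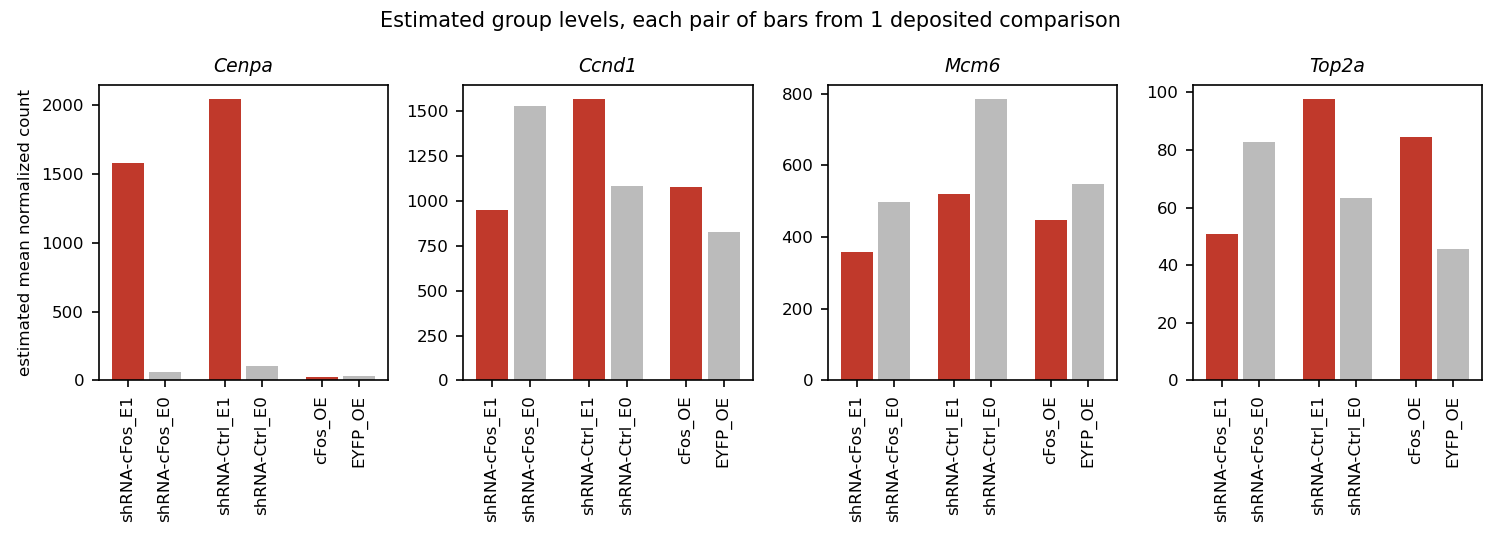
Estimated mean normalized count (y axis, no error available) of Cenpa, Ccnd1, Mcm6 and Top2a in each of the 6 groups, with each pair of bars taken from 1 deposited comparison. Cenpa is at 1579 at E1 and 62.6 at E0 with shRNA-cFos and at 2045 at E1 and 105.1 at E0 with shRNA-Ctrl, Mcm6 is lower at E1 in both pairs, and Ccnd1 and Top2a are lower at E1 with shRNA-cFos and higher at E1 with shRNA-Ctrl and in cFos_OE.

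Of the genes that help place CENP-A on chromatin, 3 were called in no comparison. Hjurp, the chaperone that deposits CENP-A, was not called in the authors' deposited tables, at -0.28 ± 0.25 with shRNA-cFos, 0.06 ± 0.25 with shRNA-Ctrl and -0.12 ± 0.20 with overexpression. Mis18a, a licensing factor for that step, stood at -0.48 ± 0.20, -0.22 ± 0.17 and -0.33 ± 0.18 in the same order of the authors' deposited tables, with no call. Neither did Oip5, a partner of Mis18a, pass the test in any of the authors' deposited tables, at -0.38, -0.23 and 0.01. These 3 genes were named after their values had been seen. In the list of 21 other centromere and CENP-A loading genes, 1 rose and 3 fell of 19 tested with shRNA-cFos, and 2 rose and 1 fell of 21 tested with shRNA-Ctrl, per the authors' deposited tables. Of these shares only the lower genes with shRNA-cFos (15.8%) lay above that of all genes (11.7%), and by little. With overexpression 0 of the 21 were called in the authors' deposited DESeq2 table, and 1 was above 0 at an unadjusted p under 0.05. The gene that rose with both hairpins was Rbbp7, which encodes a histone-binding protein, at 0.65 ± 0.08 with shRNA-cFos and 0.48 ± 0.08 with shRNA-Ctrl in the authors' deposited tables. Among histone variant genes, H3f3b, which encodes the replication-independent histone H3.3, rose by 0.78 ± 0.07 with shRNA-cFos and 0.90 ± 0.07 with shRNA-Ctrl in the authors' deposited tables.

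The other centromere genes among the 36, Cenpe and Cenpf, were not called in any comparison. Cenpe, which encodes a kinesin motor of the kinetochore, stood at -0.30 ± 0.21 with shRNA-cFos, 0.38 ± 0.18 with shRNA-Ctrl and -0.06 ± 0.19 with overexpression in the authors' deposited tables. The values of Cenpf, a large kinetochore-associated protein, were -0.49 ± 0.23, 0.12 ± 0.21 and 0.23 ± 0.20 in the authors' deposited tables. Both stood below 0 with shRNA-cFos, where Cenpa rose.

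The D cyclins, which start the cycle with CDK4 and CDK6, had the highest mean counts of the 36 genes. Counts are not per length, so levels are not compared between genes. Ccnd1 had an estimated level of 949.6 normalized counts at E1 and 1525 at E0 with shRNA-cFos in the authors' deposited table, and fell by 0.68 ± 0.11 on the log2 scale (adjusted p = 5.06e-08). At E1 with shRNA-Ctrl its level was 1567, against 1083 at E0, a rise of 0.53 ± 0.20 in the authors' deposited table (adjusted p = 0.0238). Its level in cFos_OE was 1078, against 827.6 in EYFP_OE, a rise of 0.38 ± 0.13 in the authors' deposited table (adjusted p = 0.0225). Ccnd1 thus went down at E1 with the c-Fos hairpin and up in the other comparisons. The difference of its E1 responses, shRNA-cFos minus shRNA-Ctrl, was -1.22 ± 0.23 (adjusted p = 3.17e-06), as computed from the authors' deposited tables.

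Ccnd2 differed from Ccnd1 in that it fell with overexpression. Its level in cFos_OE was 1742, against 2476 in EYFP_OE, a log2 change of -0.51 ± 0.09 in the authors' deposited table (adjusted p = 1.33e-06). At E1 with shRNA-Ctrl it rose by 0.36 ± 0.10 in the authors' deposited table (3788 at E1, 2942 at E0, adjusted p = 0.00211). With shRNA-cFos it was at -0.18 ± 0.09 in the authors' deposited table and did not pass the test (2768 at E1, 3146 at E0, adjusted p = 0.111). The difference of these responses was -0.55 ± 0.14 (adjusted p = 0.000699), as computed from the authors' deposited tables. Of the E cyclins, which act with CDK2 at the start of replication, neither Ccne1 nor Ccne2 was called, and their 6 values in the authors' deposited tables were all at or below 0, from -0.58 to -0.03. E2f1, a transcription factor of replication genes, was at -0.42 ± 0.19, 0.05 ± 0.19 and -0.13 ± 0.16 with shRNA-cFos, shRNA-Ctrl and overexpression in the authors' deposited tables, with no call.

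The 6 MCM genes encode the hexameric helicase that opens DNA for replication. With shRNA-cFos all 6 values were below 0, and 4 of the 6 genes fell in the authors' deposited table. Mcm3 fell by 0.71 ± 0.19 (69.2 at E1, 113 at E0), Mcm2 by 0.63 ± 0.19 (112 at E1, 174 at E0) and Mcm7 by 0.58 ± 0.14 (181 at E1, 272 at E0) in the authors' deposited table. Adjusted p-values there were 0.00204, 0.00607 and 0.000498. With shRNA-Ctrl these 3 genes stood at 0.08 ± 0.16, -0.01 ± 0.18 and 0.19 ± 0.15 in the authors' deposited table, none of them called. The responses with shRNA-cFos were lower than with shRNA-Ctrl for Mcm3 (-0.79 ± 0.25, adjusted p = 0.0117) and Mcm7 (-0.77 ± 0.21, adjusted p = 0.00241), as computed from the authors' deposited tables. For Mcm2 that difference did not pass the test (-0.62 ± 0.26, adjusted p = 0.0646), as computed from the authors' deposited tables. Mcm2 rose with overexpression by 0.43 ± 0.16 in the authors' deposited table (137 in cFos_OE, 101.7 in EYFP_OE, adjusted p = 0.0478), a call that is lost without the authors' filter on low counts (adjusted p = 0.0578).

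Mcm6 behaved differently from its partners in the helicase, since it fell at E1 with both hairpins. Its estimated level was 357 normalized counts at E1 and 499 at E0 with shRNA-cFos, and 520.5 at E1 and 786 at E0 with shRNA-Ctrl, from the authors' deposited tables. The log2 fold change was -0.48 ± 0.12 with shRNA-cFos (adjusted p = 0.000499) and -0.59 ± 0.09 with shRNA-Ctrl (adjusted p = 7.13e-09) in the authors' deposited tables. The difference of these responses was 0.11 with a 95% interval of -0.18 to 0.41 (adjusted p = 0.651), as computed from the authors' deposited tables. With overexpression Mcm6 stood at -0.29 ± 0.12 in the authors' deposited table (446.8 in cFos_OE, 547 in EYFP_OE, adjusted p = 0.0825). Mcm4 and Mcm5 were not called, with values of -0.35 and -0.16 for shRNA-cFos, -0.06 and -0.02 for shRNA-Ctrl, and 0.09 and 0.14 for overexpression in the authors' deposited tables.

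Of the genes for DNA synthesis, Pcna, the sliding clamp of DNA polymerases, and Tyms, which makes thymidylate, rose slightly at E1 with shRNA-Ctrl. The level of Pcna in the authors' deposited table was 990.1 at E1 and 814.4 at E0 with shRNA-Ctrl (0.28 ± 0.07, adjusted p = 0.00105). That of Tyms was 364.2 at E1 and 305.3 at E0 with shRNA-Ctrl in the authors' deposited table (0.25 ± 0.10, adjusted p = 0.0351). With shRNA-cFos both stood above 0 without a call in the authors' deposited table, at 0.18 ± 0.09 for Pcna and 0.20 ± 0.13 for Tyms. These were the only genes of the 36 besides Cenpa above 0 with shRNA-cFos. With overexpression they were at -0.13 ± 0.10 and -0.11 ± 0.12 in the authors' deposited table, neither called. Rrm2, a subunit of ribonucleotide reductase, was called in no comparison (-0.22, 0.09 and 0.40 with shRNA-cFos, shRNA-Ctrl and overexpression in the authors' deposited tables).

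The genes of entry into mitosis had few counts, from 12.7 to 55.5 on average with shRNA-Ctrl in the authors' deposited table. Ccnb1, which encodes cyclin B1, the partner of CDK1, rose at E1 with shRNA-Ctrl to an estimated 18.5 normalized counts, against 10.9 at E0, in the authors' deposited table (0.76 ± 0.28, adjusted p = 0.0245). With shRNA-cFos it was below the filter on low counts in the authors' deposited table (10.3 at E1, 13.4 at E0, -0.38 ± 0.26, not tested). With overexpression it was at 0.51 ± 0.20 without a call in the authors' deposited table (15.0 in cFos_OE, 10.6 in EYFP_OE, adjusted p = 0.0655). Cdk1, Ccna2, Ccnb2 and Foxm1, a transcription factor for genes of this phase, were called in no comparison. Their values lay between 0.17 and 0.43 with shRNA-Ctrl and between 0.20 and 0.47 with overexpression in the authors' deposited tables. With shRNA-cFos the 3 of them that were tested lay between -0.39 and -0.05 in the authors' deposited table.

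Among mitotic kinases and checkpoint genes, Aurka, the kinase of the spindle poles, fell at E1 with shRNA-cFos. Its level was 44.7 at E1 and 66.8 at E0 with shRNA-cFos in the authors' deposited table (-0.58 ± 0.22, adjusted p = 0.0354). With shRNA-Ctrl it was at 0.43 ± 0.21 in the authors' deposited table (66.5 at E1, 49.4 at E0, adjusted p = 0.111), and with overexpression at 0.39 ± 0.20 (adjusted p = 0.224), neither called. The E1 responses of Aurka differed by -1.01 ± 0.31 (adjusted p = 0.00761), shRNA-cFos minus shRNA-Ctrl, as computed from the authors' deposited tables. Bub1, a kinase of the spindle checkpoint, rose at E1 with shRNA-Ctrl to an estimated 13.2 normalized counts, against 6.7 at E0, in the authors' deposited table (0.98 ± 0.29, adjusted p = 0.00375). It had the lowest mean count of the 36 genes there, 9.96, and was not tested with shRNA-cFos in the authors' deposited table, where its value was -0.39 ± 0.25. Plk1, Bub1b, Birc5 and Aurkb were called in no comparison, and with overexpression all 6 genes of this group were above 0 in the authors' deposited table, from 0.13 to 0.43.

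Tpx2, which activates Aurora A on the spindle, showed the same directions as Aurka and was called with both hairpins. Its level in the authors' deposited table was 54.1 at E1 and 80.2 at E0 with shRNA-cFos, a fall of 0.57 ± 0.21 (adjusted p = 0.0273). With shRNA-Ctrl its level was 90.9 at E1 and 62.1 at E0 in the authors' deposited table, a rise of 0.55 ± 0.20 (adjusted p = 0.0203). The difference of the responses was -1.12 ± 0.29 (adjusted p = 0.00115), as computed from the authors' deposited tables. With overexpression Tpx2 stood at 0.46 ± 0.19 in the authors' deposited table and missed the threshold (adjusted p = 0.0956). Prc1, which bundles microtubules between the separating chromosomes, had the largest value of the 36 genes with overexpression. Its level was 98.3 in cFos_OE and 50.7 in EYFP_OE in the authors' deposited table, a rise of 0.95 ± 0.19 (1.94-fold, adjusted p = 1.27e-05). At E1 Prc1 was at -0.24 ± 0.23 with shRNA-cFos and 0.03 ± 0.20 with shRNA-Ctrl in the authors' deposited tables, not called with either. Kif11 and Kif23, kinesins of the spindle and its midzone, were called in no comparison.

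Cdc20, an activator of the anaphase-promoting complex, was called in no comparison, at -0.50 ± 0.25 with shRNA-cFos, 0.41 ± 0.25 with shRNA-Ctrl and 0.50 ± 0.20 with overexpression in the authors' deposited tables. The difference of its E1 responses passed the test (-0.91 ± 0.35, adjusted p = 0.0444), as computed from the authors' deposited tables. Without the filter on low counts it did not (adjusted p = 0.0579). Ube2c, the ubiquitin-conjugating enzyme of the same complex, was called in no comparison (-0.36, 0.21 and 0.27 in the same order of the authors' deposited tables).

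Top2a, the topoisomerase that untangles chromosomes, and Mki67, the antigen Ki-67 used to stain dividing cells, both rose with overexpression. Top2a had an estimated 84.4 normalized counts in cFos_OE and 45.7 in EYFP_OE in the authors' deposited table (0.89 ± 0.19, 1.85-fold, adjusted p = 9.07e-05). Mki67 had 116.5 in cFos_OE and 68.9 in EYFP_OE in the authors' deposited table (0.76 ± 0.17, 1.69-fold, adjusted p = 0.000189). At E1 with shRNA-cFos, Top2a fell to 50.7, against 82.9 at E0, in the authors' deposited table (-0.71 ± 0.21, adjusted p = 0.00554). At E1 with shRNA-Ctrl it rose to 97.9, against 63.4 at E0, in the authors' deposited table (0.63 ± 0.20, adjusted p = 0.00885). The difference of the E1 responses of Top2a, shRNA-cFos minus shRNA-Ctrl, was -1.33 ± 0.29 (adjusted p = 0.000108), the largest of the tested genes among the 36, as computed from the authors' deposited tables. Mki67 was not called at E1, at -0.20 ± 0.20 with shRNA-cFos and 0.32 ± 0.17 with shRNA-Ctrl in the authors' deposited tables, and its difference did not pass the test (-0.52 ± 0.26, adjusted p = 0.132).

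Over the 32 genes tested with both hairpins, the difference of the E1 responses was below 0 for 29. The tested difference was lower with shRNA-cFos for 8 (25%, against 11% of all genes), namely Top2a, Ccnd1, Tpx2, Aurka, Cdc20, Mcm3, Mcm7 and Ccnd2, as computed from the authors' deposited tables. It was higher for 0 of the 32 by this normal test on the DESeq2 estimates (against 12.9% of all genes), also at an unadjusted p under 0.05. By sign alone, 21 of the 32 genes (65.6%) were below 0 with shRNA-cFos and above 0 with shRNA-Ctrl, against 22.5% of all 14386 genes tested in both of the authors' deposited tables. The reverse, above 0 with shRNA-cFos and below 0 with shRNA-Ctrl, was seen for 0 of the 32, against 3120 of the 14386. Another 8 genes were below 0 with both hairpins, against 4018 of the 14386. Above 0 with both were 3 (Cenpa, Pcna and Tyms), against 4015 of the 14386. Between overexpression and shRNA-Ctrl, 22 of 36 genes (61.1%) were above 0 in both, against 27.8% of 15514 genes in the authors' deposited tables. Between shRNA-cFos and overexpression, 23 of 32 genes were below 0 with shRNA-cFos and above 0 with overexpression, against 3834 of 14343 genes in the authors' deposited tables. Sizes did not follow each other closely: the Spearman correlation across the genes was 0.07 between the hairpins, 0.27 between overexpression and shRNA-Ctrl and -0.35 between shRNA-cFos and overexpression. Over all genes of the authors' deposited tables these were 0.18, 0.21 and -0.16, and genes are not independent replicates.

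**Figure D3:**
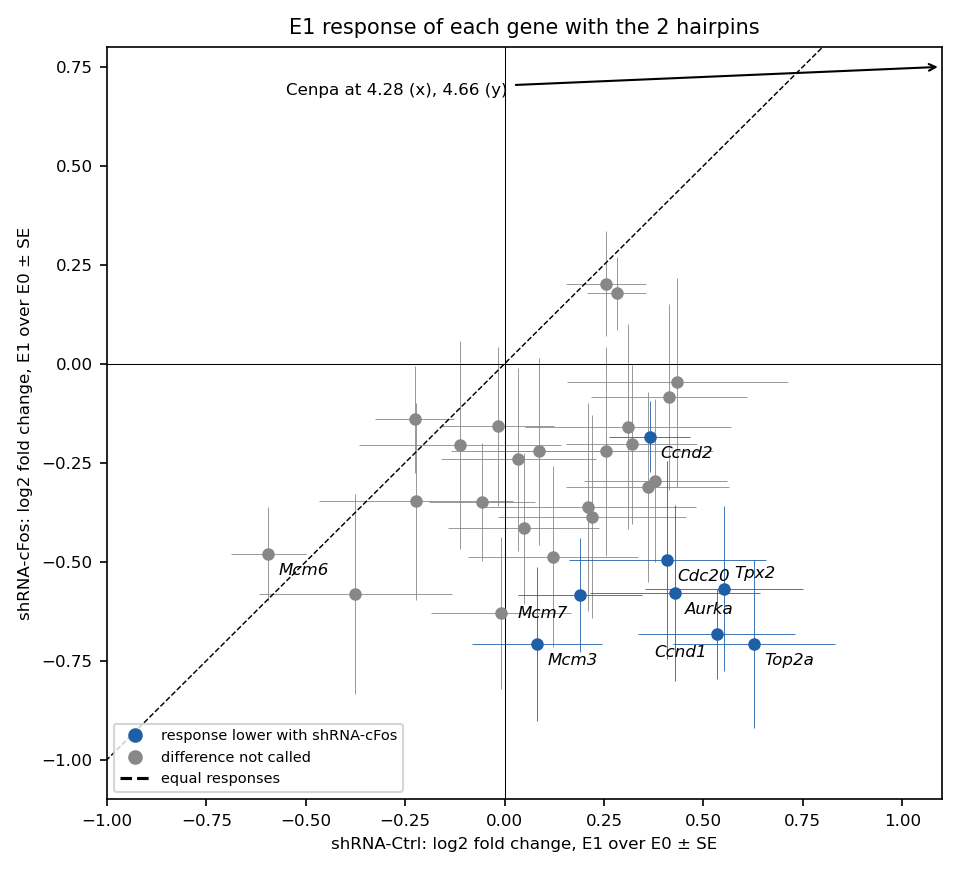
Log2 fold change at E1 over E0 with shRNA-cFos (y axis, ± SE) against that with shRNA-Ctrl (x axis, ± SE) for the genes tested with both hairpins. Blue points are the 8 genes whose response was lower with shRNA-cFos by the test of the difference, grey points are genes with no called difference, and the dashed line marks equal responses. Most points lie below 0 on the y axis and above 0 on the x axis, Mcm6 lies near the line, and Cenpa lies beyond the axes at 4.28 and 4.66.

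The 19 genes with neither a call nor a differing response were Ccne1, Ccne2, E2f1, Mcm4, Mcm5, Rrm2, Cdk1, Ccna2, Ccnb2, Foxm1, Aurkb, Plk1, Bub1b, Birc5, Cenpe, Cenpf, Kif11, Kif23 and Ube2c. Their log2 fold changes in the authors' deposited tables ranged from -0.58 (Ccne2) to -0.05 (Ccnb2) over the 17 tested with shRNA-cFos. They ranged from -0.38 (Ccne2) to 0.54 (Aurkb) with shRNA-Ctrl and from -0.13 (E2f1) to 0.47 (Ccna2) with overexpression in the authors' deposited tables. All 17 tested with shRNA-cFos were below 0, while 13 of 19 were above 0 with shRNA-Ctrl and 15 of 19 with overexpression. Ccne1 had the highest mean counts of them, 220.3 with shRNA-cFos, 297.8 with shRNA-Ctrl and 253.1 with overexpression in the authors' deposited tables. The lowest mean counts were those of Aurkb with shRNA-cFos (7.71) and shRNA-Ctrl (12.1) and of Cdk1 with overexpression (10.7) in the authors' deposited tables. A p that missed the threshold does not show that a gene did not change.

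Other genes of the pathway were taken from 6 lists, and their counts are read against the shares of all genes. Those were 16.3% higher and 11.7% lower with shRNA-cFos, 16.8% higher and 16.2% lower with shRNA-Ctrl, and 7.1% higher and 5.86% lower with overexpression, with medians within 0.01 of 0. Of 51 other mitotic genes, 1 rose and 7 fell of 35 tested with shRNA-cFos (median -0.32), and 9 rose and 1 fell of 48 tested with shRNA-Ctrl (median 0.20) in the authors' deposited tables. With overexpression 1 rose and 0 fell of 49 tested in the authors' deposited DESeq2 table (5 and 0 at an unadjusted p under 0.05), with a median of 0.17 and 41 values above 0. Fewer of these genes rose than of all genes with shRNA-cFos (2.86%) and more fell (20%), while with shRNA-Ctrl the share that rose (18.8%) was near that of all genes and few fell (2.08%). Kif18a, a kinesin that limits the length of spindle microtubules, rose by 0.82 ± 0.21 at E1 with shRNA-cFos and by 2.31 ± 0.21 with shRNA-Ctrl in the authors' deposited tables, a difference of -1.48 ± 0.30 (adjusted p = 2.23e-05). Kif4, a chromosome-bound kinesin, rose 2.83-fold with shRNA-Ctrl (adjusted p = 6.89e-09) and was at 0.54 ± 0.25 with shRNA-cFos, without a call, in the authors' deposited tables. Kif20b and Racgap1, which act in cytokinesis, and Nek2, a centrosome kinase, fell with shRNA-cFos by 0.95 ± 0.24, 0.59 ± 0.18 and 0.77 ± 0.24 in the authors' deposited table. With shRNA-Ctrl Racgap1 rose (0.52, adjusted p = 0.00633) and the other two were not called in the authors' deposited table. Cit, the citron kinase of cytokinesis, was the mitotic gene that rose with overexpression (0.39 ± 0.11), and it also rose with shRNA-Ctrl (0.75 ± 0.11) in the authors' deposited tables. Ncapd2, a condensin subunit, fell with both hairpins, by 0.36 ± 0.12 with shRNA-cFos and 0.28 ± 0.10 with shRNA-Ctrl in the authors' deposited tables.

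Of 25 other DNA replication genes, 1 rose and 6 fell of 24 tested with shRNA-cFos (median -0.33), and 2 rose and 4 fell of 25 tested with shRNA-Ctrl (median 0.00) in the authors' deposited tables. With overexpression 0 of 25 were called in the authors' deposited DESeq2 table (2 above 0 at an unadjusted p under 0.05), and the median was 0.06. The share that fell was above that of all genes with shRNA-cFos (25%) and near it with shRNA-Ctrl (16%), and the share that rose was below it with either hairpin (4.17% and 8%). Orc1, a subunit of the origin recognition complex, rose with both hairpins, by 0.65 ± 0.26 with shRNA-cFos and 1.30 ± 0.25 with shRNA-Ctrl in the authors' deposited tables. Uhrf1, which carries DNA methylation through replication, rose by 0.63 ± 0.23 with shRNA-Ctrl in the authors' deposited table. With shRNA-cFos the falls of smallest adjusted p were those of Fen1, a flap endonuclease (-0.82 ± 0.16), Cdt1, which loads the MCM helicase (-0.94 ± 0.21), and Rfc3, a clamp loader subunit (-0.76 ± 0.20), in the authors' deposited table. With shRNA-Ctrl they were those of Dut, which keeps uracil out of DNA (-0.48 ± 0.09), Rpa2, which coats single-stranded DNA (-0.63 ± 0.13), and Chaf1a, a histone chaperone (-0.55 ± 0.13), in the authors' deposited table. Chaf1a fell with shRNA-cFos as well (-0.48 ± 0.17) in the authors' deposited table.

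Of 13 CDK inhibitors and antiproliferative genes, 1 rose and 1 fell of 11 tested with shRNA-cFos, 4 rose and 1 fell of 12 tested with shRNA-Ctrl, and 2 rose and 0 fell of 12 with overexpression (3 and 2 at an unadjusted p under 0.05) in the authors' deposited DESeq2 tables. The shares that rose with shRNA-Ctrl (33.3%) and overexpression (16.7%) were above those of all genes, on few genes. Btg2, an antiproliferative gene induced early by many stimuli, rose by 2.05 ± 0.12 with shRNA-cFos and 2.49 ± 0.12 with shRNA-Ctrl in the authors' deposited tables. Cdkn1a, which encodes the inhibitor p21, rose by 1.76 ± 0.23 with shRNA-Ctrl and by 0.98 ± 0.15 with overexpression in the authors' deposited tables. With shRNA-cFos it stood at 0.19 ± 0.15 in the authors' deposited table, and the difference of the E1 responses was -1.57 ± 0.28 (adjusted p = 7.07e-07). Gadd45a, a gene of stress and growth arrest, fell by 0.87 ± 0.21 with shRNA-cFos and rose by 0.47 ± 0.18 with shRNA-Ctrl and 1.85 ± 0.18 with overexpression in the authors' deposited tables. Ccnd1, a driver of the cycle, and Cdkn1a, a brake on it, were thus both higher in cFos_OE. Cdkn1b, which encodes the inhibitor p27, rose by 0.36 ± 0.10 and Cdkn2d fell by 0.39 ± 0.07 with shRNA-Ctrl in the authors' deposited table.

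Of 20 other G1 and cell cycle control genes, 2 rose and 3 fell of 17 tested with shRNA-cFos, 5 rose and 4 fell of 19 tested with shRNA-Ctrl, and 1 rose and 1 fell of 20 with overexpression in the authors' deposited tables. With shRNA-Ctrl 26.3% rose and 21.1% fell, both above the shares of all genes but on few genes, and with overexpression 5% did either. Myc, a growth-promoting transcription factor, rose by 0.68 ± 0.16 with shRNA-cFos and 1.11 ± 0.14 with shRNA-Ctrl in the authors' deposited tables. Its relative Mycn fell with both, by 0.78 ± 0.18 with shRNA-cFos and 0.60 ± 0.15 with shRNA-Ctrl in the authors' deposited tables. Cdk4, the partner of the D cyclins, fell with both hairpins, by 0.49 ± 0.11 with shRNA-cFos and 0.23 ± 0.09 with shRNA-Ctrl in the authors' deposited tables. E2f3 rose with both, by 0.49 ± 0.12 with shRNA-cFos and 0.34 ± 0.11 with shRNA-Ctrl in the authors' deposited tables. Neither difference between the hairpins passed the test (adjusted p = 0.199 for Cdk4 and 0.546 for E2f3), as computed from the authors' deposited tables. Wee1, the kinase that restrains CDK1, fell with shRNA-Ctrl by 0.82 ± 0.09, where Ccnd3, the third D cyclin, rose by 0.46 ± 0.10, in the authors' deposited table. Ccng1 rose by 0.61 ± 0.13 with shRNA-Ctrl and 0.49 ± 0.10 with overexpression in the authors' deposited tables. Ccng2 fell in all 3 of the authors' deposited tables, by 0.32 ± 0.11 with shRNA-cFos, 0.38 ± 0.10 with shRNA-Ctrl and 0.27 ± 0.10 with overexpression. The 9 histone variant genes were divided, with 2 higher and 1 lower with shRNA-cFos, 2 higher and 3 lower with shRNA-Ctrl and 0 of either with overexpression (1 above 0 at an unadjusted p under 0.05) in the authors' deposited DESeq2 tables.

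Markers of cell types were counted as well, in lists of 6 to 11 genes, and none of their genes was at 0. Their counts too are read against the shares of all genes. Those were 16.3% higher and 11.7% lower with shRNA-cFos, 16.8% and 16.2% with shRNA-Ctrl, and 7.1% and 5.86% with overexpression. On lists this short, counts near those shares are no result about a list. Most markers of microglia followed the directions of the cell cycle genes. Of 11, 1 rose and 6 fell with shRNA-cFos (54.5% lower, median -0.40), 9 rose and 0 fell with shRNA-Ctrl (81.8% higher, median 0.35), and 8 rose and 0 fell with overexpression (72.7% higher, median 0.51) in the authors' deposited DESeq2 tables. At an unadjusted p under 0.05, 0 fell in the last 2 of these as well. Their summed estimated level was 6805 at E1 and 8343 at E0 with shRNA-cFos, 12166 at E1 and 9349 at E0 with shRNA-Ctrl, and 9786 in cFos_OE and 7336 in EYFP_OE, from the authors' deposited tables. Cd68, a lysosomal marker of these cells, fell by 0.61 ± 0.17 with shRNA-cFos and rose by 0.58 ± 0.18 with shRNA-Ctrl and 0.91 ± 0.15 with overexpression in the authors' deposited tables. P2ry12 was the microglia marker that rose with shRNA-cFos (0.32 ± 0.13, adjusted p = 0.0375) in the authors' deposited table. The difference of its E1 responses, shRNA-cFos minus shRNA-Ctrl, was 0.45 ± 0.19 and did not pass the test (adjusted p = 0.066). Oligodendrocyte precursor markers fell for 2 of 6 with shRNA-cFos, rose for 4 of 6 with shRNA-Ctrl and were called for 0 of 6 with overexpression (2 below 0 at an unadjusted p under 0.05) in the authors' deposited DESeq2 tables. For these markers the 33.3% lower with shRNA-cFos and the 66.7% higher with shRNA-Ctrl were above the shares of all genes. Summed, they stood at 4146 at E1 and 4783 at E0 with shRNA-cFos, 6174 at E1 and 5417 at E0 with shRNA-Ctrl, and 4167 in cFos_OE and 4557 in EYFP_OE, from the authors' deposited tables. The part of microglia and precursor cells in the values of the cell cycle genes was not tested.

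Markers of neural progenitors, the dividing cells of the neuronal lineage, were mixed. Of 8, 0 rose (0 also at an unadjusted p under 0.05) and 3 fell with shRNA-cFos, 2 rose and 1 fell with shRNA-Ctrl, and 1 rose and 2 fell with overexpression in the authors' deposited DESeq2 tables. The share that fell with shRNA-cFos (37.5%) was above that of all genes (11.7%). With shRNA-Ctrl 25% rose and 12.5% fell, against 16.8% and 16.2% of all genes. With overexpression 12.5% rose and 25% fell, against 7.1% and 5.86%, on few genes. Nes, an intermediate filament of progenitors, fell with both hairpins (-0.87 ± 0.14 with shRNA-cFos, -0.55 ± 0.13 with shRNA-Ctrl), whereas Vim, a filament that reactive glia also express, fell by 0.59 ± 0.19 with shRNA-cFos and rose by 0.54 ± 0.18 with shRNA-Ctrl in the authors' deposited tables. Vim also rose with overexpression (0.85, adjusted p = 0.000385) in the authors' deposited table. The progenitor markers Sox2 (-0.38, adjusted p = 0.000193) and Hes5 (-0.55, adjusted p = 0.0156) fell there. Sox2 fell with shRNA-cFos as well (-0.35, adjusted p = 0.00262) in the authors' deposited table. Immature neuron markers rose for 5 of 8 and fell for 2 with shRNA-cFos, rose for 2 and fell for 1 with shRNA-Ctrl, and rose for 4 and fell for 0 with overexpression (1 below 0 at an unadjusted p under 0.05) in the authors' deposited DESeq2 tables. The shares that rose were 62.5%, 25% and 50% in that order, all above those of all genes. The share that fell was above that of all genes with shRNA-cFos (25%) and below it with shRNA-Ctrl (12.5%). Dcx, the microtubule protein of new neurons, rose with overexpression by 0.51 ± 0.10 in the authors' deposited table. Granule neuron markers went the other way from the cell cycle genes: of 8, 5 rose and 0 fell with shRNA-cFos, 1 rose and 6 fell with shRNA-Ctrl, and 0 rose and 4 fell with overexpression in the authors' deposited DESeq2 tables. Thus 62.5% of these markers rose with shRNA-cFos, 75% fell with shRNA-Ctrl and 50% fell with overexpression, all above the shares of all genes. At an unadjusted p under 0.05, 1 was below 0 with shRNA-cFos and 0 were above 0 with overexpression. Their summed level was 13103 at E1 and 9593 at E0 with shRNA-cFos, 17604 at E1 and 21770 at E0 with shRNA-Ctrl, and 15646 in cFos_OE and 17363 in EYFP_OE, from the authors' deposited tables.

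Astrocyte markers rose for 4 of 8 and fell for 2 with shRNA-cFos, rose for 1 and fell for 0 with shRNA-Ctrl (2 and 0 at an unadjusted p under 0.05), and rose for 3 and fell for 2 with overexpression in the authors' deposited DESeq2 tables. The share that rose with shRNA-Ctrl (12.5%) was below that of all genes (16.8%). Both shares were above those of all genes with shRNA-cFos (50% and 25%) and overexpression (37.5% and 25%). Gfap, the filament of reactive astrocytes, fell by 0.57 ± 0.11 with shRNA-cFos and rose by 0.86 ± 0.20 with overexpression in the authors' deposited tables. The glutamate transporter gene Slc1a2 (0.64), the gap junction gene Gja1 (0.57) and Glul, which makes glutamine (0.40), rose with shRNA-cFos in the authors' deposited table. Glul (-0.48) and the transporter gene Slc1a3 (-0.24) fell with overexpression in the authors' deposited table. Endothelial markers rose for 1 and fell for 1 of 7 with shRNA-cFos, rose for 2 and fell for 0 with shRNA-Ctrl (3 and 1 at an unadjusted p under 0.05), and rose for 0 and fell for 3 with overexpression (0 and 3) in the authors' deposited DESeq2 tables. With shRNA-cFos both shares were 14.3%, near those of all genes, and are no result about this list. The 28.6% that rose with shRNA-Ctrl and the 42.9% that fell with overexpression were above them, on few genes. Markers of pyramidal neurons of neighbouring fields rose for 2 and fell for 1 of 7 tested with shRNA-cFos, and 0 of 8 were called with shRNA-Ctrl (0 at an unadjusted p under 0.05) or overexpression (1 above and 1 below 0) in the authors' deposited DESeq2 tables. With shRNA-cFos 28.6% of them rose and 14.3% fell, the second near the share of all genes. Over the 8 marker lists the log2 fold change that was highest at E1 was that of Sox11, an immature neuron marker, at 1.22 ± 0.13 with shRNA-Ctrl in the authors' deposited table, far under that of Cenpa.

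**Figure D4:**
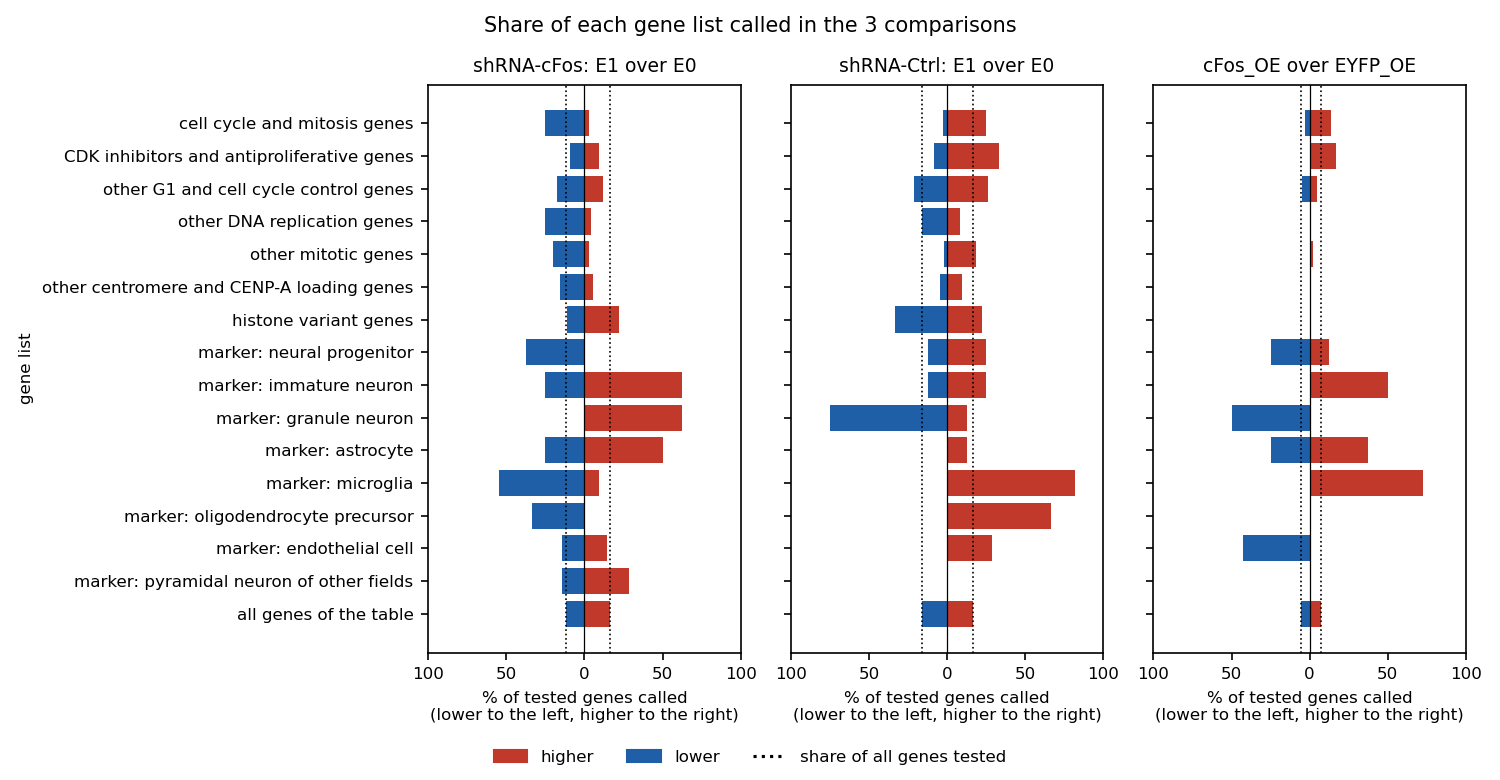
Share of the tested genes of each list called higher (red, to the right) or lower (blue, to the left) at E1 with shRNA-cFos, at E1 with shRNA-Ctrl and with c-Fos overexpression, from left to right, with dotted lines at the shares of all genes (16.3% and 11.7%, 16.8% and 16.2%, 7.1% and 5.86%). The cell cycle genes and the microglia markers lean to the left with shRNA-cFos and to the right in the other panels, and the granule neuron markers lean the opposite way.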

How the data were processed

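The data are 3 tables of the authors' own comparisons of dentate gyrus RNA: shRNA-cFos_E1 against shRNA-cFos_E0, shRNA-Ctrl_E1 against shRNA-Ctrl_E0, and cFos_OE against EYFP_OE, each of 3 against 3 libraries. TopHat2, DESeq2 and the genome build mm9 were used per the submitters' processing notes. Versions, the counting tool, the annotation and the strand setting were not found in the labels or file headers. Per the file headers, the authors deposited for each gene the mean normalized count over the 6 libraries, a signal value in units of size-factor-scaled counts. They also deposited the log2 fold change with its standard error, the Wald score, which is their ratio, its 2-sided p-value and the adjusted p-value. The sign of the hairpin tables follows the name the authors gave the comparison, and that of overexpression follows Fos. In the table of the overexpression, 27 gene names had become dates and were left out. No column holds values per library, so the fit per library that the plan named first was replaced by its stated fallback, the deposited estimates.

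Calls were made at the authors' adjusted p under 0.05, over 14388 genes with shRNA-cFos, 15675 with shRNA-Ctrl and 15827 with overexpression. The difference of the E1 responses (shRNA-cFos minus shRNA-Ctrl) was divided by its own standard error, those of the 2 tables added in quadrature. Its p is normal and 2-sided, and was adjusted by Benjamini and Hochberg's method over 14386 genes, those tested with both hairpins. This step and the removal of the shrinkage prior were tested on simulated data. For the removal, the simulated prior was known and weighed less than the data of each gene, so genes with the fewest counts were not covered. The prior, which no source states, was inferred from the standard errors and taken as normal, centred on 0, with a standard deviation of 0.53, 0.59 and 0.41 in the 3 tables. Where a standard error is above 90% of the table's largest (14, 7 and 22 of the 36 genes), the value without the prior is uncertain. It is uncertain also at the fewest counts, where standard errors fall again, as for Bub1 with overexpression (SE 0.17, mean count 7.67). Group levels were computed from the mean count and the deposited fold change. The 36 genes, the 6 other lists and the 8 marker lists were chosen with earlier results of these data known. Named genes were all of the 36 that were called or whose responses differed, and of each other list up to 3 higher and 3 lower per comparison by the smallest adjusted p. Alternatives changed the threshold, a minimum fold, the filter on low counts, the prior and the centring. Python 3.11.15, numpy 2.4.6, pandas 2.3.3, scipy 1.17.1 and matplotlib 3.10.9 were used.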

Additional observations from a re-analysis of the deposited data

Results flagged for a closer look

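The E1 response differed between the hairpins, by the test of the difference itself, for 8 of the 36 genes. It was also lower with shRNA-cFos for 11 of 35 tested genes of the other mitotic list, 6 of 24 of DNA replication, 5 of 11 CDK inhibitors and antiproliferative genes, 2 of 17 of G1 control, 2 of 19 of the centromere list and 1 of 9 histone variants. It was higher for 1 gene in each of the lists of replication, G1 control, centromere and histone variant genes. Over all tested genes 11% were lower and 12.9% higher, so that the lower shares of the G1 control (11.8%), centromere (10.5%) and histone variant (11.1%) lists and the higher shares of all these lists are near or below that of all genes and are no result about those lists. Of each list and direction, the gene with the smallest adjusted p is named. The values are log2 fold changes at E1, shRNA-cFos minus shRNA-Ctrl, computed from the authors' deposited tables. Of the 36 cell cycle genes the response was lower with shRNA-cFos for Top2a (-1.335), Ccnd1 (-1.217), Tpx2 (-1.119), Aurka (-1.007), Cdc20 (-0.9052), Mcm3 (-0.7885), Mcm7 (-0.7742) and Ccnd2 (-0.5494). Of the other lists it was lower for the spindle protein gene Ckap2 (-2.068), Cdkn1a (-1.573), Cdt1 (-1.305), the centromere protein gene Cenpt (-0.7445), Ccng1 (-0.7218) and the histone variant gene H2afz (-0.3143). It was higher with shRNA-cFos for Wee1 (0.6749), Dut (0.5477), the histone variant gene H2afv (0.4335) and the centromere protein gene Cenpb (0.4056). Ckap2, with the largest difference of the genes named here, fell by 0.78 ± 0.26 at E1 with shRNA-cFos and rose by 1.28 ± 0.26 at E1 with shRNA-Ctrl in the authors' deposited tables. Groups of 3 libraries with no values per library could not be searched for a library far from the others. Markers of microglia differed in the same direction, with 7 of 11 lower with shRNA-cFos and 0 higher by the same normal test on DESeq2 estimates. So did oligodendrocyte precursor (4 of 6 lower, 0 higher), endothelial (3 of 7, 0 higher) and progenitor markers (3 of 8, 0 higher). Granule neuron markers went the other way, with 7 of 8 higher and 0 lower. Astrocyte (3 higher and 3 lower of 8), immature neuron (1 and 1 of 8) and pyramidal neuron markers (2 higher and 1 lower of 7) were divided. The part of these cell types in the differences was not tested.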

How the results depend on the processing

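Of the 7 alternatives run, only the shift by the median, under 0.01 on the log2 scale, could have changed the sign of a value, and it changed none of the 36 genes. Shifting by the median and dropping the filter on low counts left the counts of calls in the 3 tables as they were or within 1.5 times. Removing the prior could not change those counts, because it multiplies each gene's estimate and SE in a table by the same factor. For calls within a table it is therefore no test. At an adjusted p under 0.01 the genes higher with shRNA-Ctrl numbered 5 and those higher with overexpression 3. At an adjusted p under 0.1, 2 were lower with shRNA-Ctrl, 8 higher with overexpression and 2 lower with overexpression. With a minimum of 1.5-fold, 4 were lower with shRNA-cFos, 4 higher with shRNA-Ctrl, 3 higher with overexpression and 0 lower with overexpression. These changes follow from the stricter or looser rule itself. The 8 responses lower with shRNA-cFos numbered 6 at 0.01, 10 at 0.1, 7 at 1.5-fold, 9 without the filter, 7 with a mean count of at least 50 and 8 with the prior removed. Without the filter Bub1 (-1.38, adjusted p = 0.00434) and Ccnb1 (-1.13, adjusted p = 0.0234) passed and Cdc20 did not (adjusted p = 0.0579). Depth per library is unknown, and small counts limit the precision for most of the 36 genes. No paired analysis was possible because the deposited tables hold comparisons and no values per library. Leaving out each replicate in turn was not run for the same reason.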
